A study of Mus musculus with 10 samples.

Results

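The DNA replication machinery was followed here through 42 genes whose products license, open, copy and finish DNA at the replication fork. They were taken by name, 42 of 55450 annotated genes, with no measured value in the rule. Each gene was read with 5 kb on either side (GENCODE M21 positions on mm10), and these windows held 278 of the 211107 accessible regions in the union of 5 ATAC-seq peak lists. Of the 278, 96 lay within 1 kb of an annotated transcription start and are called start-site regions, and 182 lay elsewhere in the windows. The cells were Myc-CaP, a prostate cancer line of FVB/NJ mouse origin, and the labels give no genetic difference between groups. Untreated cells (Ctrl) were set against cells given 2 µM oxaliplatin (Oxali), 2 µM cisplatin (Cispl), IFNγ (1000 pg, with no volume in the labels) or 2 µM oxaliplatin with 1000 pg IFNγ (Oxali + IFNγ), each for 48 h. Every group had 2 libraries, which the authors pooled before calling peaks, so 1 list stands for each group and no difference could be set against the spread between replicates.

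Replication starts where the origin recognition complex sits on DNA and, with Cdc6 and Cdt1, loads the ring-shaped MCM helicase. Cdc45 and the GINS complex turn the loaded ring into a working helicase, polymerase α with primase lays down primers, and polymerases δ and ε extend them while held by the PCNA clamp. Many of these genes are transcribed as cells enter S phase under E2F factors, and platinum drugs form DNA adducts that obstruct the fork.

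The promoters of the replication genes were the first feature examined, because E2F elements are known from the promoters of many S-phase genes. RefSeq promoters (GRCm38.p6, 250 bases before to 50 after the start) were matched for 35 of the 42 genes. Mcm4, Gins1, Gins2, Gins4, Prim2, Pole and Rfc2 had no entry. An E2F element (TTTCGCGC, TTTGGCGC, TTTCCCGC or TTTGCCGC on either strand) was present in 14 of 35, or 40.0% (95% Wilson interval 25.6 to 56.4%). The same letters were found in 2.26% of all 32817 promoters and in 4.87% of the 9894 promoters inside start-site regions above the median Ctrl accessibility. Median GC content was 63.0% in the replication promoters and 62.7% in those 9894. The 4 genes with more than 1 match are shown, each 5′ to 3′ on the coding strand with 20 flanking bases where the promoter allows, and capitals mark the E2F matches.
Mcm6 (chr1:128359725-128359835, minus strand): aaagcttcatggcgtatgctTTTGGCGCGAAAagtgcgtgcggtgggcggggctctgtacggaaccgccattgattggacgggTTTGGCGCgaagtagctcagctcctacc
Mcm5 (chr8:75109336-75109387, plus strand): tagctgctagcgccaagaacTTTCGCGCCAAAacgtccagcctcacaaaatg
Rfc3 (chr5:151651181-151651238, minus strand): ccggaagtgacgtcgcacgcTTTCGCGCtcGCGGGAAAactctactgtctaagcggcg
Mcm3 (chr1:20820263-20820313, minus strand): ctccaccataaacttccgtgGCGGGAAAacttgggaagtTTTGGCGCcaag

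In Mcm6, 2 of the 3 matches overlap and read as 1 element from either strand, and the same holds for the pair in Mcm5. Single matches stood in Orc1, Orc3, Cdc6, Cdt1, Gins3, Pola1, Pold1, Pold3, Pole2 and Lig1. These are shown for the licensing factor Cdc6 and the polymerase α subunit Pola1, whose treated levels are given further on. The whole RefSeq promoter of Cdc6 lay downstream of its GENCODE start, and the RefSeq start was 427 bp from the Ctrl summit.
Cdc6 (chr11:98907993-98908040, plus strand): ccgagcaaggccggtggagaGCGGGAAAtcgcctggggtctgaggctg
Pola1 (chrX:93632266-93632313, minus strand): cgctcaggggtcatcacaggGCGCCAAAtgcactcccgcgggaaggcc

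The CCAAT box (CCAAT), bound by NF-Y, was found in 22 of 35 replication promoters, or 62.9% (46.3 to 76.8%), against 39.3% of the promoters above the median accessibility. The GC box (GGGCGG), bound by Sp factors, was in 74.3% (57.9 to 85.8%) against 71.5%. For the E-box (CACGTG), bound by Myc and its partners, the shares were 11.4% (4.54 to 26.0%) and 11.2%, and for the cell cycle element CHR (TTTGAA) 11.4% (4.54 to 26.0%) and 10.3%. The E2F and CCAAT shares therefore lay above the comparison set beyond counting error, and the other intervals held it. A match is a run of letters and not a measured binding site. These intervals cover counting error alone.

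Peak values were turned into levels so that lists of unequal depth could be read side by side. The level of a region is the number of extended reads piled up at its highest summit, divided by the genome-wide background of that list, which ran from 9.62 under IFNγ to 13.8 under Cispl. A level of 100 is thus a pileup 100 times the genome background. Of the prostate and epithelial markers given here, Krt8, Foxa1 and Hoxb13 had a region at the gene start in every list, at Ctrl levels of 88.8, 98.6 and 93.8. Krt18 was called in 2 lists at levels of 3.54 and 4.08, Epcam in 1 list at 2.49, and Cdh1 in none. The leukocyte markers Ptprc and Cd3e and the endothelial markers Cdh5 and Tek had no region at the outermost gene start in any list. Ptprc, Cd3e and Col1a2 had start-site regions elsewhere in their windows. Ptprc had 1 in each of the 3 platinum lists and none in Ctrl or IFNγ, and Cd3e had 1 in every list. The leukocyte marker Csf1r was called in all 5 lists, at 7.00 in Ctrl and 17.2, 21.1, 4.37 and 18.6 under Oxali, Cispl, IFNγ and Oxali + IFNγ. Pecam1 was called in 3 lists at up to 2.98, and the fibroblast genes Col1a1 (49.9 in Ctrl) and Pdgfra (11.9) in all 5, while Col1a2 had no region at its outermost annotated start in any list. The part of other cell types in the results was not tested.

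All 42 replication genes had a start-site region in all 5 lists, as did 53.3% of the 21951 protein-coding genes, and the weakest −log10 q among them was 135. In Ctrl their levels ran from 47.6 (Prim1) to 249 (Gins2) with a median of 122, against a median of 46.0 over all 20074 start-site regions called in every list. They lay between the 50.8th and the 99.0th percentile of those regions, 25 of them in the highest of 4 equal classes of Ctrl level and 17 in the next. Their regions had a median width of 1322 bp, and 36 of the 42 Ctrl summits lay within 250 bp of the gene's annotated start. For 13 genes the region also covered or adjoined the start of another protein-coding gene, among them Mcm4 with Prkdc, Orc6 with Vps35 and Rpa3 with Umad1. In those cases the level belongs to both genes. In Orc4, Mcm7, Rfc2 and Lig1 the highest Ctrl summit lay 913 to 1485 bp inside the gene from its start.

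**Figure D1:**
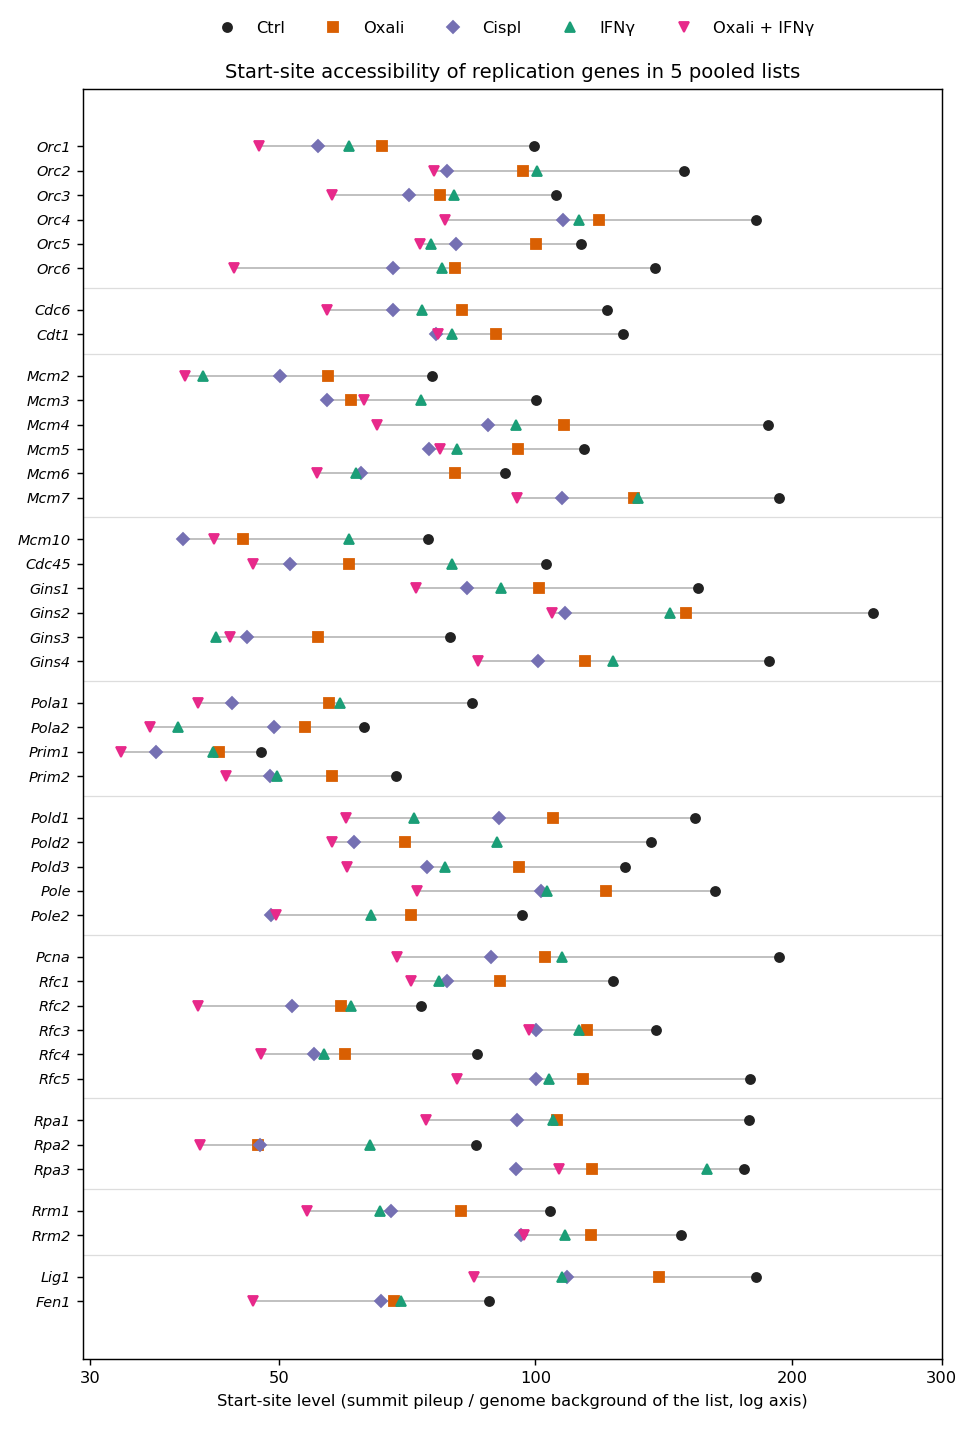
Start-site level of each replication gene (rows, in blocks by role) in the 5 pooled lists, on a log axis in multiples of the genome background. Each point is 1 list of 2 pooled libraries. The Ctrl point lies to the right of the 4 treated points in all 42 rows, and the Oxali + IFNγ point is the lowest in 34.

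Every one of the 42 start sites had its highest level in Ctrl. The median level was 122 in Ctrl, 86.0 under Oxali, 72.9 under Cispl, 77.9 under IFNγ and 60.1 under Oxali + IFNγ. The lowest level was in Oxali + IFNγ for 34 genes, in Cispl for 7 and in IFNγ for 1 (Gins3). Treated over Ctrl ratios had medians of 0.690 under Oxali, 0.582 under Cispl, 0.658 under IFNγ and 0.511 under Oxali + IFNγ. Open start sites in general did the same. A level in Ctrl above that of each treated list was seen in 58.2% of all start-site regions and in 92.2% of the 10031 above the median Ctrl level, where all the replication genes lie. Likewise Oxali + IFNγ was the lowest list in 44.2% and 74.0% of those sets.

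The ratio of a start site to Ctrl differed with its Ctrl level. Over all start-site regions the median ratio was 0.841 under Oxali, 0.758 under Cispl, 0.742 under IFNγ and 0.722 under Oxali + IFNγ. In the class of lowest Ctrl level these medians were 1.34, 1.34, 0.901 and 1.39, and in the class of highest Ctrl level 0.666, 0.573, 0.652 and 0.469. The replication genes were therefore read against a pair of references, the median of all start-site regions and the median of the regions in the same of 20 classes of Ctrl level. The second was added after the data were seen.

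**Figure D2:**
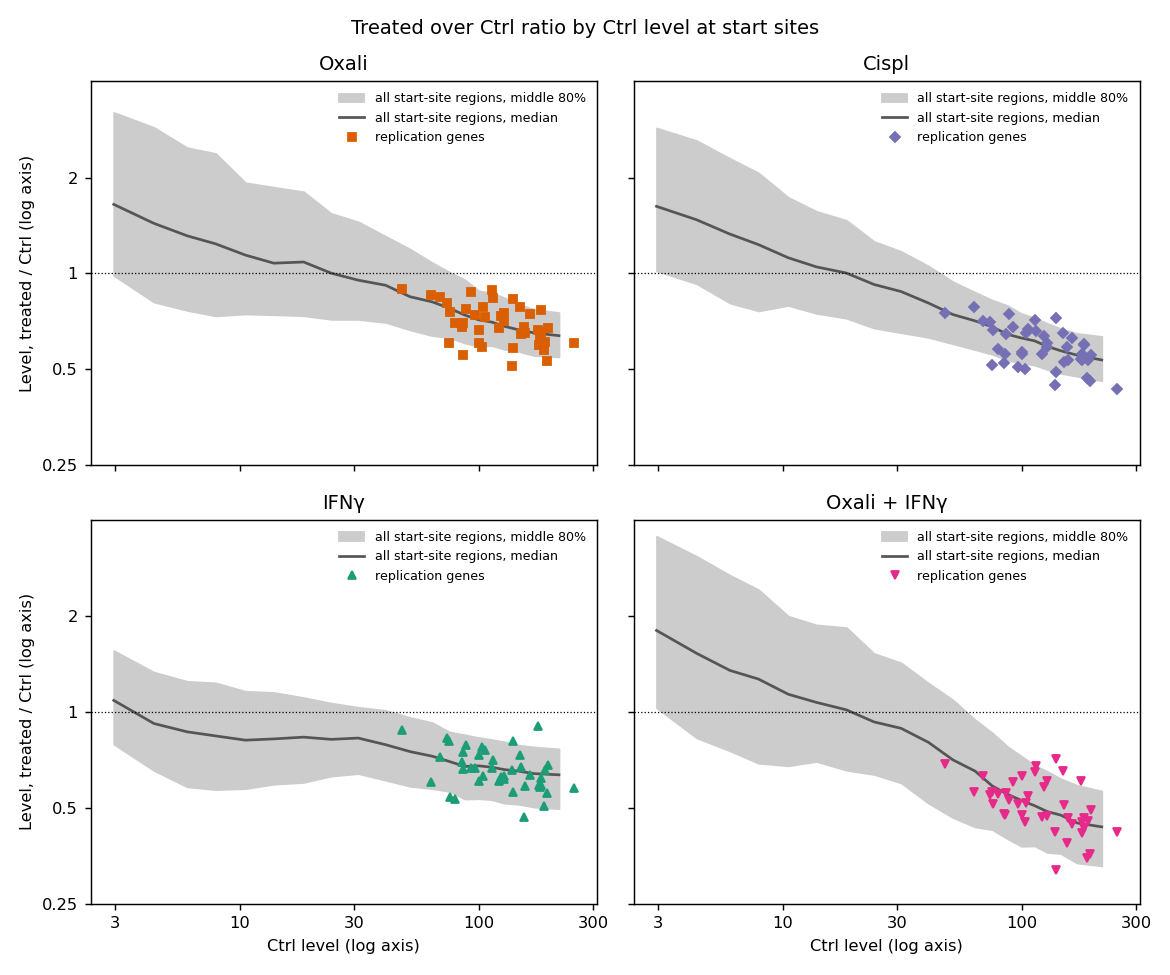
Treated over Ctrl ratio of the level against the Ctrl level, both on log axes, with 1 panel for each treatment. Points are the 42 replication genes, the line is the median and the grey band the 10th to 90th percentile of all 20074 start-site regions in 20 classes of Ctrl level. The points follow the falling line, and most lie inside the band.

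Against all start-site regions, the median replication gene was lower in each treatment. The median relative fold was 0.821 under Oxali, 0.769 under Cispl, 0.886 under IFNγ and 0.708 under Oxali + IFNγ. With a call set at a log2 difference of 0.322 from the reference, 17 of 42 were lower in Oxali, where 21.3% of all start-site regions were, and 0 were higher, against 31.0%. In Cispl 26 were lower (background 24.4%) and 0 higher (33.0%). In IFNγ 11 were lower (15.8%) and 0 higher (20.2%). In Oxali + IFNγ 31 were lower (34.6%) and 0 higher (36.4%). Among the 10031 regions above the median Ctrl level, the share that was lower was 37.5% under Oxali, 45.7% under Cispl, 23.4% under IFNγ and 64.2% under Oxali + IFNγ. Among the replication genes, all of which are in that set, it was 40.5, 61.9, 26.2 and 73.8% in the same order. The 4 treated lists share the Ctrl list, so their counts do not repeat one another independently.

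Against regions of the same Ctrl level, the replication genes lay near 1. The median relative fold was 1.01 under Oxali, 1.00 under Cispl, 0.986 under IFNγ and 0.970 under Oxali + IFNγ. In Oxali 3 genes were called lower (Mcm10, Pold2 and Rpa2; background 15.7%) and 1 was higher (Orc5; 19.0%). In Cispl 2 were lower (Mcm10 and Pold2; 13.9%) and 1 was higher (Rfc3; 15.1%). In IFNγ 4 were lower (Mcm2, Mcm4, Gins3 and Pold1; 14.8%) and 1 was higher (Rpa3; 13.0%). In Oxali + IFNγ 2 were lower (Orc6 and Mcm4; 23.4%) and 5 were higher (Orc5, Mcm5, Rfc3, Rpa3 and Rrm2; 24.1%). Each of these counts, as a share of 42, is below the share of all start-site regions. Among regions above the median Ctrl level the lower shares were 6.68, 6.02, 11.3 and 18.4%, against 7.14, 4.76, 9.52 and 4.76% of the replication genes, so the Oxali share was not below that set. The higher shares there were 10.0, 6.36, 8.64 and 18.3%, against 2.38, 2.38, 2.38 and 11.9%. Relative to all start sites 15 replication genes (35.7%) were lower in all 3 platinum lists, against 16.1% of all start-site regions and 31.1% of those above the median Ctrl level. Relative to the same of 20 classes of Ctrl level 0 were, against 7.10% and 2.53%, and relative to the same of 4 classes 1 was (Cdc45), against 8.06% and 2.90%.

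**Figure D3:**
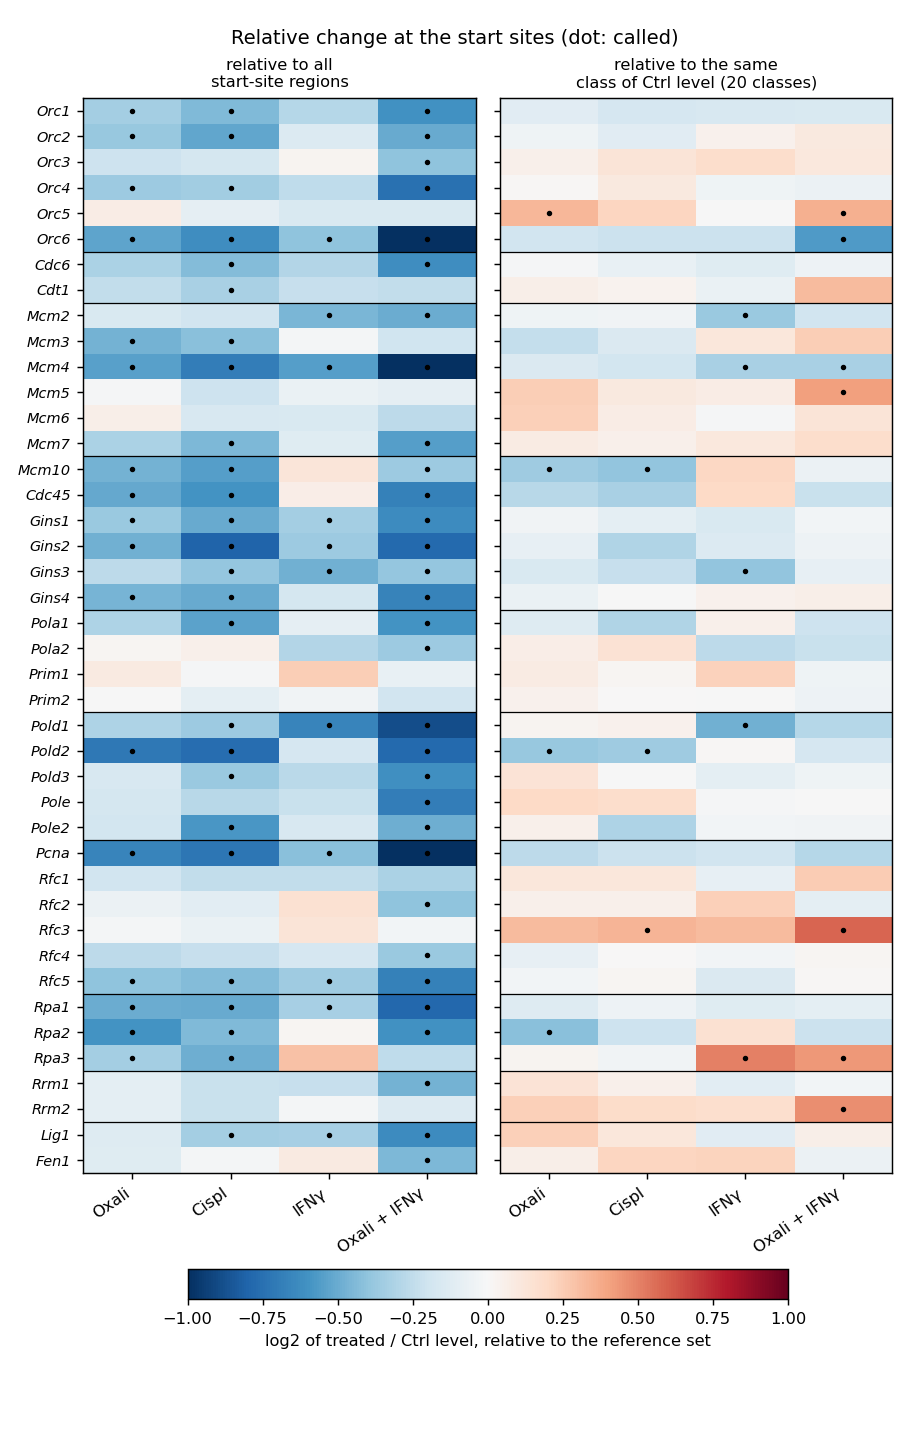
Log2 of the treated over Ctrl ratio for each replication gene (rows, lines between roles) and treatment (columns), relative to all start-site regions on the left and to regions of the same class of Ctrl level on the right. Dots mark a log2 difference of at least 0.322 in either direction. The left panel holds 17, 26, 11 and 31 dots, all blue, and the right panel 4, 3, 5 and 7 of both colours.

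The origin recognition complex marks the sites where replication can begin, and its 6 subunit genes began at Ctrl levels of 99.6 to 181. Orc4, the most accessible, had 181 in Ctrl, 119 under Oxali, 108 under Cispl, 113 under IFNγ and 78.3 under Oxali + IFNγ. Orc6 (chr8:85299023-85300485, shared with Vps35) had 138 in Ctrl and 80.6, 68.0, 77.6 and 44.2 in the treated lists in the same order. Its Oxali + IFNγ ratio of 0.320 (95% counting interval 0.291 to 0.352) was the lowest of all 42 genes, and it was 0.674-fold relative to regions of its own Ctrl level. Orc5 lay at the other end, with 113 in Ctrl, 100.2 under Oxali, 80.6 under Cispl, 75.5 under IFNγ and 73.3 under Oxali + IFNγ. Its Oxali ratio was 0.886 (0.818 to 0.960), which was 1.26-fold above regions of its Ctrl level. Counting intervals treat the pileup as a count and cover no difference between libraries.

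Cdc6 and Cdt1, the loaders of the MCM ring, had Ctrl levels of 122 and 127. Cdc6 was at 82.1 under Oxali, 68.1 under Cispl, 73.7 under IFNγ and 57.0 under Oxali + IFNγ. Cdt1 was at 90.0, 76.5, 79.9 and 76.9. The pair had like levels except with the combination, where the ratio of Cdc6 was 0.469 (0.428 to 0.512) and that of Cdt1 0.608 (0.560 to 0.659), intervals that do not overlap.

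The 6 subunits of the MCM2-7 ring, the replicative helicase, ran from 75.5 (Mcm2) to 193 (Mcm7) in Ctrl. Mcm7 was at 131 under Oxali, 107 under Cispl, 132 under IFNγ and 95.1 under Oxali + IFNγ. Mcm4, whose region serves Prkdc on the opposite strand as well, had 187 in Ctrl and 108, 88.1, 94.9 and 65.2 in the treated lists. Its Oxali + IFNγ ratio was 0.348 (0.321 to 0.377). Mcm5 had 114 in Ctrl, 95.4 under Oxali, 75.1 under Cispl, 80.9 under IFNγ and 77.3 under Oxali + IFNγ, and Mcm6 had 92.1, 80.5, 62.5, 61.5 and 55.4. Their Oxali ratios were 0.835 (0.771 to 0.905) and 0.874 (0.799 to 0.955). Mcm3, which like them has more than 1 E2F match, had an Oxali ratio of 0.606 (0.551 to 0.666). Its levels were 100.3, 60.8, 56.9, 73.5 and 62.9, and it is the gene with a higher level in Oxali + IFNγ than in Oxali. Mcm2 was lower with IFNγ alone, at 40.7, than with Oxali (57.0) or Cispl (50.2). Subunits of 1 ring thus differed in ratio by more than counting error, from 0.348 in Mcm4 to 0.677 in Mcm5 under Oxali + IFNγ.

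Cdc45, Mcm10 and the 4 GINS subunits switch the helicase on. Gins2 was the most accessible of the 42 genes, with 249 in Ctrl, 150.1 under Oxali, 108 under Cispl, 144 under IFNγ and 105 under Oxali + IFNγ. Its Cispl ratio of 0.435 (0.409 to 0.463) was the lowest in that list. Gins3 had 79.3 in Ctrl, 55.6 under Oxali, 45.8 under Cispl, 42.2 under IFNγ and 43.9 under Oxali + IFNγ, and is the gene whose lowest level was with IFNγ alone. Mcm10, a scaffold of the activated helicase, had 74.7 in Ctrl and 45.3, 38.6, 60.4 and 42.0 in the treated lists, so its IFNγ level was above that of every platinum list. Cdc45 likewise had its highest treated level under IFNγ, with 103 in Ctrl, 60.5 under Oxali, 51.6 under Cispl, 79.9 under IFNγ and 46.6 under Oxali + IFNγ. Relative to regions of their Ctrl level, Mcm10 stood at 0.781 under Oxali, 0.760 under Cispl and 1.16 under IFNγ, and Cdc45 at 0.823, 0.800 and 1.15.

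Polymerase α and primase, which make the primers, had the lowest range of start-site levels of the roles examined, from 47.6 to 84.4 in Ctrl. Prim1, the catalytic primase subunit, had 47.6 in Ctrl, 42.5 under Oxali, 35.8 under Cispl, 41.9 under IFNγ and 32.6 under Oxali + IFNγ. Its Oxali ratio of 0.892 has a counting interval of 0.789 to 1.01, and its IFNγ ratio of 0.880 one of 0.773 to 1.001. Both include no change. Pola2 had 62.9 in Ctrl, 53.7 under Oxali, 49.3 under Cispl, 38.0 under IFNγ and 35.3 under Oxali + IFNγ. Pola1, the catalytic subunit of polymerase α, had 84.4, 57.2, 44.1, 58.9 and 40.2.

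The replicative polymerases δ and ε copy the lagging and the leading strand. Pole, the catalytic subunit of polymerase ε, had 162 in Ctrl, 121 under Oxali, 102 under Cispl, 103 under IFNγ and 72.5 under Oxali + IFNγ. Pold2, a structural subunit of polymerase δ, had 137, 70.3, 61.2, 90.2 and 57.7, and its Oxali ratio of 0.513 (0.471 to 0.559) was the lowest in that list. Pold1, the catalytic subunit of the same enzyme, had 154 in Ctrl, 105 under Oxali, 90.5 under Cispl, 72.1 under IFNγ and 60.0 under Oxali + IFNγ. With IFNγ its ratio of 0.468 (0.428 to 0.511) was the lowest of all 42, and with Oxali it was 0.680 (0.632 to 0.732). Pold1 and Pold2 therefore had opposite orders for Oxali and IFNγ. Pold3 had 127, 95.6, 74.7, 78.3 and 60.1.

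PCNA is the clamp that keeps polymerases on DNA, and the RFC complex loads it. Pcna had 193 in Ctrl, 103 under Oxali, 88.7 under Cispl, 107 under IFNγ and 68.9 under Oxali + IFNγ, with ratios of 0.532 (0.496 to 0.572), 0.460 (0.429 to 0.493), 0.556 (0.517 to 0.599) and 0.357 (0.330 to 0.386). It was among the 3 genes lowest against all start sites in every platinum list. Against regions of its Ctrl level Pcna stood at 0.819 to 0.876, which was not called. With 4 classes in place of 20 it was called lower in Oxali (0.799) and in Oxali + IFNγ (0.761). Rfc3, a small subunit of the loader, had the highest ratio with the combination. It had 138 in Ctrl, 115 under Oxali, 100.1 under Cispl, 112 under IFNγ and 98.3 under Oxali + IFNγ, and its Oxali + IFNγ ratio of 0.710 (0.660 to 0.764) was 1.50-fold above regions of its Ctrl level. Rfc2 had 73.5, 59.2, 51.7, 60.7 and 40.2, and Rfc1, the large subunit, had 123, 90.8, 78.7, 77.0 and 71.5.

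RPA coats the single strands behind the helicase. Rpa1 had 178 in Ctrl, 106 under Oxali, 95.1 under Cispl, 105 under IFNγ and 74.5 under Oxali + IFNγ. Rpa2 had 85.2, 47.3, 47.4, 63.9 and 40.4. Rpa3 shares its region with Umad1 and had 176 in Ctrl, 116 under Oxali, 94.9 under Cispl, 159 under IFNγ and 107 under Oxali + IFNγ. With IFNγ its ratio was 0.907 (0.848 to 0.969), the highest of the 42 genes, and 1.42-fold above regions of its Ctrl level. In Rpa1 the same ratio was 0.589 (0.546 to 0.634).

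Ribonucleotide reductase supplies deoxynucleotides, and Rrm2 is its S-phase subunit. Rrm2 had 148 in Ctrl, 116 under Oxali, 96.2 under Cispl, 108 under IFNγ and 97.0 under Oxali + IFNγ, and Rrm1 had 104, 81.8, 67.7, 65.7 and 54.0. Of the genes that join Okazaki fragments, the ligase gene Lig1 had 182, 139.6, 109, 107 and 84.7, and the flap nuclease gene Fen1 had 88.3, 68.2, 66.0, 69.6 and 46.6. The Rrm2 ratio in Oxali + IFNγ, 0.655 (0.609 to 0.704), was 1.38-fold above regions of its Ctrl level. For Fen1 it was 0.528 (0.477 to 0.584), or 0.958 against such regions.

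Genes with and without an E2F match were set side by side. The 14 with a match had a median Ctrl level of 110 and the 21 without one 123. Median ratios were 0.720 and 0.663 under Oxali, 0.587 and 0.560 under Cispl, 0.648 and 0.661 under IFNγ, and 0.530 and 0.513 under Oxali + IFNγ. Relative to regions of the same Ctrl level, the medians of both sets lay between 0.962 and 1.04.

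The platinum drugs were compared at the same dose, 2 µM for 48 h. Both carry platinum, cisplatin with ammine and chloride ligands and oxaliplatin with diaminocyclohexane and oxalate. Cispl lay below Oxali at 41 of 42 replication start sites, with a median Cispl over Oxali ratio of 0.844 and a range from 0.684 to 1.00. Among the 10031 start-site regions above the median Ctrl level, 93.2% had that order and the median ratio was 0.861. Adding IFNγ to Oxali gave a lower level at 41 of 42 (median ratio 0.717, range 0.549 to 1.04), against 97.3% and 0.736 in the same comparison set. Adding Oxali to IFNγ also gave a lower level at 41 of 42 (median ratio 0.773, range 0.570 to 1.04), against 87.1% and 0.774. No replicate error was available for these differences.

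More regions were called in the platinum lists than in Ctrl, at and away from start sites. Of the 96 start-site regions, 75 were called in Ctrl and 85, 86, 77 and 87 under Oxali, Cispl, IFNγ and Oxali + IFNγ. These are 78.1, 88.5, 89.6, 80.2 and 90.6%, against 69.9, 79.5, 87.0, 70.2 and 85.8% around all protein-coding genes. Of the 182 regions away from start sites, 82 were called in Ctrl, 112 under Oxali, 150 under Cispl, 83 under IFNγ and 128 under Oxali + IFNγ. These counts are 45.1, 61.5, 82.4, 45.6 and 70.3%, against 50.9, 67.5, 78.2, 48.1 and 76.1% around all protein-coding genes. Calls in every list were held by 64, or 35.2%, against 37.6%. By place, 105 of the 182 were intronic, 31 overlapped an exon, 19 lay upstream and 27 downstream. A total of 22 were called in all 3 platinum lists and in neither Ctrl nor IFNγ, or 12.1%, against 11.2% around all protein-coding genes. The Cispl list ends at a −log10 p of 2.99 where the others reach 2.00, so weak regions are counted least there. Depth, taken as the genome background, was 92.9% of Ctrl in the Oxali list, 113% in the Cispl list, 79.3% in the IFNγ list and 106% in the combined list, and its part in these counts was not tested.

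A region was called gained when it had a q-value of at most 0.01 in the treated list and touched no Ctrl region, and lost in the mirror case. These counts are of the intervals in each list before merging, so several can fall in 1 merged region and the totals differ from those above. In Oxali 41 of 113 strong intervals were gained, or 36.3% (95% Wilson interval 28.0 to 45.5%), against 33.0% around all protein-coding genes. In Cispl the count was 80 of 158, or 50.6% (42.9 to 58.3%), against 39.8%. IFNγ gave 14 of 89, or 15.7% (9.61 to 24.7%), against 13.1%, and Oxali + IFNγ 48 of 129, or 37.2% (29.4 to 45.8%), against 38.9%. Only the Cispl interval left out its background. These intervals treat the gains as independent, yet 11 of the 80 Cispl gains fell in the Prim2 window. Clustering within genes was not allowed for, so the Cispl interval may be too narrow. Of the 90 strong Ctrl intervals, 10 were lost in Oxali (11.1%, background 10.5%), 7 under Cispl (7.78%, 6.38%), 15 under IFNγ (16.7%, 18.4%) and 6 under Oxali + IFNγ (6.67%, 8.88%).

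**Figure D4:**
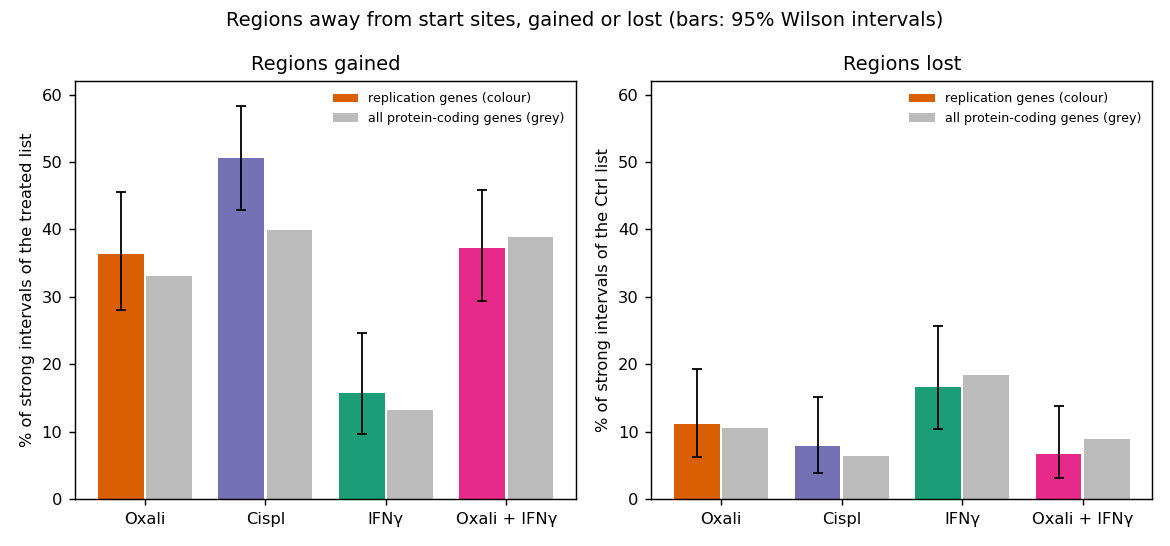
Share of strong intervals away from start sites that were gained (left, % of the treated list) or lost (right, % of the Ctrl list) around replication genes (colour) and around all protein-coding genes (grey). Error bars are 95% Wilson intervals, which cover counting error alone and do not allow for clustering within genes. The Cispl bar of 50.6% is the one whose interval lies above its grey bar of 39.8%.

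At least 1 gain was held by 20 replication genes under Oxali, 25 under Cispl, 9 under IFNγ and 24 under Oxali + IFNγ. These are 47.6, 59.5, 21.4 and 57.1% of the 42, against 44.3, 52.1, 21.9 and 50.1% of all protein-coding genes. The windows with most regions were those of the long genes Prim2 (28 regions), Orc5 (17) and Rfc1 (16). Prim2, which encodes the large primase subunit, gained 3 regions in Oxali, 11 under Cispl, 3 under IFNγ and 5 under Oxali + IFNγ. Orc5 gained 3, 7, 2 and 4, and Rfc1 gained 1, 6, 1 and 3.

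The strongest gain in each platinum list was the same element, in an intron of Pola1 303950 bp from its start (chrX:93327709-93328700 under Oxali). Its level was 20.5 under Oxali, 20.2 under Cispl and 18.6 under Oxali + IFNγ, with a −log10 q of 208, 244 and 206. It had no region in Ctrl or IFNγ, and the nearest Ctrl region was 45544 bp away from the Oxali one. A second Pola1 intronic region (chrX:93321186-93321690) reached 9.23 under Oxali, 5.74 under Cispl and 8.68 under Oxali + IFNγ, and one at −3013 bp from the start, chosen after its values were seen, 9.94, 8.21 and 10.1. The Pola1 start site was below Ctrl in the same lists, at 57.2, 44.1 and 40.2 against 84.4. An absent region means a level under the calling threshold and not an absence of reads.

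Cdc45 held the next strongest gain in Oxali and in Oxali + IFNγ. The region (chr16:18795134-18795928 under Oxali), overlapping an exon 16456 bp from the start, had 15.7 under Oxali, 4.36 under Cispl, 2.39 under IFNγ and 20.3 under Oxali + IFNγ and no call in Ctrl. A neighbouring Cdc45 intronic region 22622 bp from the start, chosen after its values were seen, was called in every list at 11.9 in Ctrl, 53.3 under Oxali, 29.6 under Cispl, 9.67 under IFNγ and 56.4 under Oxali + IFNγ. In this picked region Oxali and Cispl differed more than at any replication start site, with no matching for Ctrl level. The sequences of the Pola1 and the Cdc45 gains are shown because they are the strongest 2 by −log10 q in the Oxali list, as 201 bases of the plus strand centred on the Oxali summit (GRCm38.p6). Capitals mark the AP-1 element TGACTCA.
Pola1 gain (chrX:93328102-93328302): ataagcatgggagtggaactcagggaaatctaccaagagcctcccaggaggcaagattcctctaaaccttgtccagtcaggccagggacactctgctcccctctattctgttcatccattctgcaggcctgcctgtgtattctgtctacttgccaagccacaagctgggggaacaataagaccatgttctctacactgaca
Cdc45 gain (chr16:18795582-18795782): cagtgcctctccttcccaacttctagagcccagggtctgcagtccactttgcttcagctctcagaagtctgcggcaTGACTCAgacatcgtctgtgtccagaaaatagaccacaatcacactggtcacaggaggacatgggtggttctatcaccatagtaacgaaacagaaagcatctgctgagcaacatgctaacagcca

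The AP-1 letters (either strand, within 100 bp of the summit) were searched after these sequences had been seen. They were in 11 of the 41 regions gained around replication genes in Oxali, or 26.8% (15.7 to 41.9%), against 20.1% of the gained regions around all protein-coding genes. In Cispl the share was 16.2% (9.75 to 25.8%) against 13.8%, in IFNγ 42.9% (21.4 to 67.4%) of 14 regions against 21.7%, and in Oxali + IFNγ 25.0% (14.9 to 38.8%) against 19.4%. Each interval includes the share around all genes. Among regions around replication genes that were also in Ctrl, the letters were in 11.1% (5.74 to 20.4%) under Oxali, 8.97% (4.42 to 17.4%) under Cispl, 9.33% (4.59 to 18.0%) under IFNγ and 7.41% (3.44 to 15.2%) under Oxali + IFNγ. Around all protein-coding genes such regions held them in 21.2, 20.0, 22.0 and 21.3%, above each of these intervals. The 4 sets all overlap regions of the same Ctrl list, so they are not independent results.

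Other gains followed by −log10 q, some of them at higher levels. In Cispl the second was in a Prim2 intron (chr1:33532017-33532905) at a level of 7.99, with 5.32 under Oxali and 5.19 under Oxali + IFNγ, and the third lay outside Rrm1 at 13.5, with 7.01 and 4.03. In Oxali + IFNγ the third was an intronic Mcm6 region 2097 bp from the start at 23.2, with 22.6 under Oxali, 17.4 under Cispl and 11.5 under IFNγ. IFNγ alone had 2 of its 3 strongest gains side by side in a Prim2 intron, at 7.48 and 6.96, and the third outside Mcm4 at 17.3. The 201 bases at the summit of the stronger Prim2 gain are shown because they hold long runs of ct and ca repeats.
Prim2 gain in IFNγ (chr1:33486588-33486788): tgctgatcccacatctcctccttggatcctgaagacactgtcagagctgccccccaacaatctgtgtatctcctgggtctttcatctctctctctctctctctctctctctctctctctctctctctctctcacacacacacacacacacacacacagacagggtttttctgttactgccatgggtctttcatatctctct

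Losses were fewer than gains in the platinum lists but not under IFNγ (15 lost, 14 gained), and most were weak. A 175 bp region in an Rrm2 intron had a Ctrl level of 46.5 and was not called in any platinum list, while IFNγ had 41.8. Its local background in Ctrl was high, at 202 against 12.1 genome-wide, and its fold over that local background was 2.79. The nearest Oxali region was 394 bp from it. A Prim2 intronic region at 4.12 in Ctrl was lost in all 4 treated lists. In Oxali and Cispl the third strongest losses were in Pole2, at Ctrl levels of 5.35 and 5.11, in IFNγ the strongest 2 were in Pola1 (5.77) and Rpa1 (5.52), and in Oxali + IFNγ the third was in Prim1 (5.68). Among regions away from start sites called in every list, the 64 around replication genes had median ratios of 1.12 under Oxali, 1.14 under Cispl, 0.724 under IFNγ and 0.962 under Oxali + IFNγ, against 1.17, 1.12, 0.861 and 1.17 over 38473 such regions. Their median Ctrl levels differed, at 14.95 and 9.72, and ratios were not matched for level here.

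**Figure D5:**
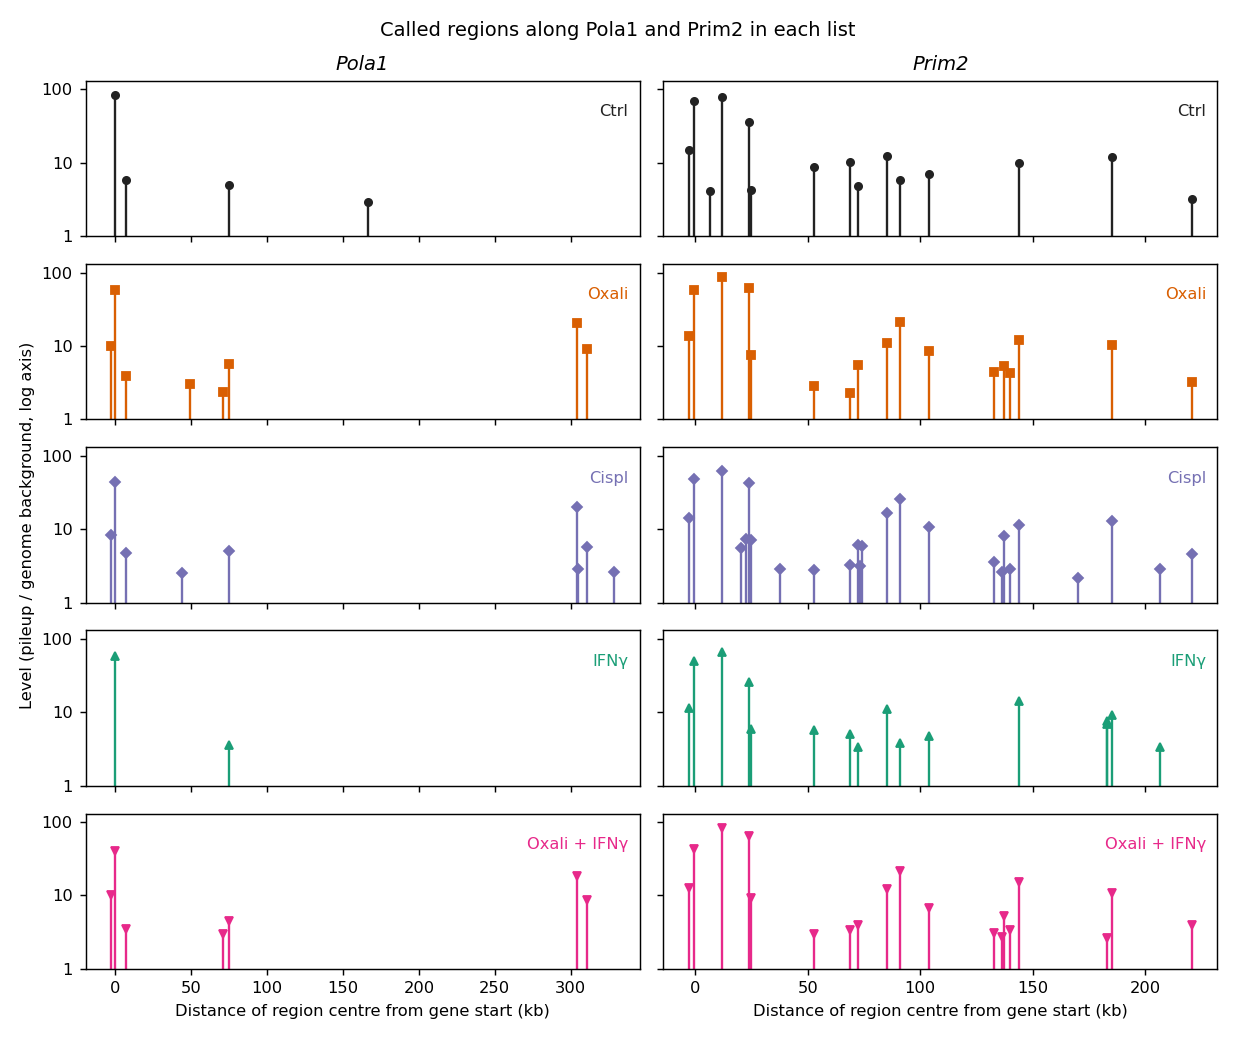
Called regions along Pola1 and Prim2 in each list, by distance of the region's centre from the gene start (kb) and level (log axis, multiples of the genome background). Each stem is 1 region. The tall stem far inside Pola1 stands at 20.5, 20.2 and 18.6 in the 3 platinum lists and is missing from Ctrl and IFNγ.

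In the Prim2 window, 10 of the 25 regions away from start sites were called in every list. All 3 platinum lists lay above Ctrl in 4 of the 10 and below it in 2. The start-site region had 68.7 in Ctrl, 57.8 under Oxali, 48.8 under Cispl, 49.7 under IFNγ and 43.3 under Oxali + IFNγ. An intronic region 23758 bp from the start had 35.5, 60.9, 42.7, 26.1 and 63.9, and another at 90935 bp had 5.77, 21.5, 25.4, 3.85 and 21.8. Both are among the 4 above Ctrl and were chosen after their values were seen, and the 2 below Ctrl are not shown.

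Beyond the 42, 51 further genes of DNA replication and S phase were read at their gene starts, and 47 had a region there in every list, the exceptions being Pole4, Rnaseh2b, Dnmt1 and E2f6. Relative to all start-site regions, 19 were called lower in Oxali, 22 under Cispl, 8 under IFNγ and 31 under Oxali + IFNγ, while 0, 1, 1 and 0 were higher. Of all start-site regions 21.3, 24.4, 15.8 and 34.6% were lower, and of those above the median Ctrl level 37.5, 45.7, 23.4 and 64.2%. The higher shares were 31.0, 33.0, 20.2 and 36.4% of all start-site regions, and 4.98, 1.77, 3.94 and 5.10% of those above the median. Of the 47, 15 were lower in all 3 platinum lists, where 16.1% of all start-site regions and 31.1% of those above the median Ctrl level were. They were the fork protection pair Timeless and Tipin, the origin firing factor Ticrr, the clamp loader subunits Chtf18 and Chtf8, the polymerase subunits Pold4 and Pole3, the topoisomerase Top2a, the chromatin assembly factor Chaf1b, Rrm2b, the transcription factors E2f1, E2f3 and E2f8, and the cell cycle genes Ccne1 and Cdk2. Timeless had the lowest relative fold of these in Oxali + IFNγ, 0.425, and E2f1 had 0.473. Relative to regions of the same Ctrl level, 5 were lower and 0 higher in Oxali, 1 and 1 under Cispl, 6 and 4 under IFNγ, and 13 and 6 under Oxali + IFNγ. Of all start-site regions 15.7, 13.9, 14.8 and 23.4% were lower by that reference and 19.0, 15.1, 13.0 and 24.1% higher, and of those above the median Ctrl level 6.68, 6.02, 11.3 and 18.4% were lower. Only Chtf18, part of a clamp loader of the sister chromatid cohesion pathway, was then called lower in all 3 platinum lists, at 0.760, 0.744 and 0.765. By that reference 7.10% of all start-site regions and 2.53% of those above the median Ctrl level were lower in all 3, beside 1 of the 47.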

How the data were processed

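The data were 5 deposited peak lists, 1 for each group of 2 ATAC-seq libraries of Myc-CaP cells. The authors trimmed reads, aligned them to mm10 with Bowtie2 2.2.8, removed poorly mapped, duplicate and mitochondrial reads, pooled the libraries of a group and called peaks with MACS2 2.1.0 without a control library. The fold per peak deposited by the authors is a ratio of pileup plus 1 to local background plus 1. The −log10 p-value and −log10 q-value deposited by the authors rest on a Poisson model of the pileup.

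The whole-number pileup and the background of each summit were solved from the fold and p. The solution met the deposited −log10 p within 0.001 for over 99.9% of summits. Intervals of the lists were merged where they shared 1 bp, and the highest summit gave the level. Deposited peaks were used with GENCODE M21 starts, which are on the same assembly, and 0 intervals ran past a chromosome end. The genome and promoters were RefSeq GRCm38.p6. Ratio intervals are exact (Clopper-Pearson) at 95%, shares have Wilson intervals, and no test was possible with 1 list per group. The genes named were, by rule, the highest Ctrl level and the extremes of each role, the 3 extremes of each treatment, and the 3 strongest gained and lost regions. Some cell type markers are not reported here. The replication genes, lists and alternatives were chosen with earlier results of these data known. Alternatives were centring, depth scaling, windows, thresholds and motif windows. Scripts (Python 3.11.15, numpy 2.4.6, pandas 2.3.3, scipy 1.17.1, matplotlib 3.10.9) were tested on simulated data.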

Additional observations from a re-analysis of the deposited data

How the results depend on the processing

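No paired analysis was possible because the libraries of each group were pooled before peaks were called, and leaving out a library was not run for the same reason. The log2 median of the 42 start sites relative to all start-site regions was −0.28 under Oxali, −0.38 under Cispl, −0.17 under IFNγ and −0.50 under both agents. Without centring it was −0.53, −0.78, −0.60 and −0.97, and 34, 42 and 37 genes were lower in Oxali, Cispl and IFNγ. Within 4 classes of Ctrl level it was −0.0169, −0.0395, −0.0545 and −0.0758, with 6, 6, 4 and 6 lower and 2, 1, 2 and 6 higher. Within 20 classes, chosen after the data were seen, it was 0.0177, −0.0001, −0.0206 and −0.0447, so Oxali changed sign, with 3, 2, 4 and 2 lower and 1, 1, 1 and 5 higher. Within 4 classes of mean level, also chosen then, it was −0.0310, −0.0598, −0.0691 and −0.0748, with 6, 7, 4 and 4 lower and 1, 2 and 4 higher in Oxali, IFNγ and Oxali + IFNγ. The fold over local background gave −0.21, −0.0202 and −0.24 in Cispl, IFNγ and Oxali + IFNγ, with 6, 8, 3 and 12 lower in the 4 lists and 1 higher in IFNγ. Centring on protein-coding starts gave −0.12, −0.17, −0.0822 and −0.15, and a 500 bp window −0.36 in Oxali + IFNγ. At 1.5-fold 3, 6, 1 and 19 were lower. At a q of 1e-05 IFNγ gained 9 regions, and the CHR letters lay near 1 summit. A further 64 values changed by less than the limits set, 1.5 times for counts. Apart from the class constructions, the cause was not tested. Pooling and counting error limit each value.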
